A study of Mus musculus with 24 samples.

Results

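The 9 genes described here, Flt1, Kdr, Egfl7, Tek, Tie1, Pecam1, Eng, Pdgfrb and Notch3, mark the endothelial cells that line blood vessels or the mural cells (pericytes and smooth muscle) that wrap them. All listed regions that overlapped a member gene or lay within 2 kb of it were taken, which gave 59 of the 53386 regions of the series and at least 1 region for 8 of the 9 genes. Eng had 13 regions, Flt1 12, Pecam1 11, Egfl7 and Notch3 7 each, and Kdr, Tie1 and Pdgfrb 3 each. Tek, the angiopoietin receptor also called Tie2, had 0 listed regions, so nothing is reported for it beyond the bases and motifs counted in its promoter window.

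The study mapped dimethylation of histone H3 at lysine 9 (H3K9me2) by chromatin immunoprecipitation and sequencing in hearts of 6 C57BL6 mice, 3 female and 3 male, aged 12 months. Every heart had undergone ischemic preconditioning, in which the left coronary artery was tied and released for 4 cycles of 5 min of ischemia and 5 min of reperfusion, followed by 30 min of reperfusion. Each mouse gave a biopsy of the area at risk (AAR), the muscle downstream of the ligature, and one of the remote myocardium (RM), and each biopsy gave an H3K9me2 library and an input library of unselected chromatin. The 24 libraries therefore form 4 groups of 6, namely AAR H3K9me2, AAR input, RM H3K9me2 and RM input. Sham-operated hearts were not analysed here, and the biopsies were compared within preconditioned hearts.

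H3K9me2 is a mark of silenced chromatin that lies in broad domains and is usually low at the start sites of active genes. Endothelial cells read vascular growth factors through the VEGF receptors, the angiopoietin receptors and the TGF-beta co-receptor endoglin, and mural cells are recruited and kept through PDGF and Notch signals. A biopsy holds many cell types, in the heart mostly cardiomyocytes by mass, so the level of the mark within one cell type and the share of that cell type in the biopsy cannot be told apart. The values are chromatin and not RNA, so the cell types themselves could not be checked against their markers.

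Counts in listed regions ran from 416683 to 1196368 per library in AAR H3K9me2, from 1286383 to 2478668 in AAR input, from 443261 to 981763 in RM H3K9me2 and from 1405503 to 1770520 in RM input. Levels below are CPM, counts scaled to a common library total with edgeR's TMM factors, which hides any shift shared by the whole set of regions. Log2 fold changes are of H3K9me2 over input, or of AAR over RM. A region was called at an adjusted p under 0.05 in edgeR's quasi-likelihood test, with Benjamini-Hochberg adjustment over all tested regions, and each adjusted p below is from that test. The mice are separate animals, so the spread between libraries of a group holds differences between mice together with counting noise. These parts of the spread were not separated.

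Regions were numbered within each gene by coordinate on build mm10. They were 1200 to 6400 bases wide with a median of 2800. Of them 22 lay at or within 2 kb of an end of their own gene, while 37 lay inside it only. Of the 59 regions, 30 overlapped another listed region. The table gives 0 reads to 4 of those in every library, namely Egfl7 2, Tie1 3, Pecam1 5 and Pecam1 8. Counts of overlapping regions understate their full length in all libraries alike. Of the regions, 17 also lay within 2 kb of another annotated gene, among them Egfl7 5, 6 and 7 (Agpat2 and the microRNA genes Mir126a and Mir126b) and Eng 11, 12 and 13 (Fpgs). Which regions inside a gene cover exons was not analysed here.

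RefSeq promoter windows, from 250 bases before to 50 after a start site on GRCm38.p6, the assembly of mm10, were matched to 7 of the 9 genes, not to Pecam1 and Pdgfrb. They are shown for 4 genes, each under a tested region, as examples that range from CG-rich to CG-poor, with CG dinucleotides in capitals. The 4 windows are at chr5:147725962-147726261 on the minus strand for Flt1, chr5:75978406-75978705 on the minus strand for Kdr, chr2:26586386-26586685 on the plus strand for the most downstream of 3 Egfl7 starts, and chr2:32646345-32646644 on the plus strand for Eng.
Flt1: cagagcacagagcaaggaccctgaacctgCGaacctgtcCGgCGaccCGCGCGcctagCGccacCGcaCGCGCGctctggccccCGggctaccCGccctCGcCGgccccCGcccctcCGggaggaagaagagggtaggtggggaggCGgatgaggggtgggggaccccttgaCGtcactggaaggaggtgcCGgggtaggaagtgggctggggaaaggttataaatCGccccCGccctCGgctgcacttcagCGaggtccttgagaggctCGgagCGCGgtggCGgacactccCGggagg
Kdr: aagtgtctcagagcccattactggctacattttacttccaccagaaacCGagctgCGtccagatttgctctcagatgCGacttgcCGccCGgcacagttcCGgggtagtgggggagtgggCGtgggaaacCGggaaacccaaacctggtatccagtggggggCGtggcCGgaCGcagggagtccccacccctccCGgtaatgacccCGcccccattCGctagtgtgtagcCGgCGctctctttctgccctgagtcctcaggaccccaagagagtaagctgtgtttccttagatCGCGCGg
Egfl7: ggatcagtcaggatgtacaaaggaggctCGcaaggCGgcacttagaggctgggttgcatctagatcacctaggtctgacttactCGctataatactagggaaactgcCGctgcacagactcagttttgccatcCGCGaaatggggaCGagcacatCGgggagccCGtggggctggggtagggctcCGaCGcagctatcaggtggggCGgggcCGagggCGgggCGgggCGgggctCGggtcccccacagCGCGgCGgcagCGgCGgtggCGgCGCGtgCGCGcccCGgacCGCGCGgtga
Eng: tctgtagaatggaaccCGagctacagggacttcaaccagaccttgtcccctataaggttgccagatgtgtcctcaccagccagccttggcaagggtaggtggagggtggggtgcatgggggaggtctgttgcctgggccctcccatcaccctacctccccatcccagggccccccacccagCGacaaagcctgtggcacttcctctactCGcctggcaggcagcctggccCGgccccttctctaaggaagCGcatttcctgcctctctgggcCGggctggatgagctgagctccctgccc
The Flt1 window holds 29 CG dinucleotides, that of Kdr 19, that of Egfl7 31 and that of Eng 6, against a median of 7 over 32815 RefSeq windows (quartiles 3 and 20). The other 2 Egfl7 windows hold 5 and 8, Tie1 7, Tek 3 and Notch3 25. Flt1 and the downstream Egfl7 start thus stand at the 87.7th and 90.0th percentiles of all windows, and Eng at the 45.8th.

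Both strands of the windows were searched for 3 motifs, none of which contains another, and overlapping matches were counted. AGGAAG, a core of ETS factor sites, occurred 2 times in the Flt1 window and 2 times in that of Eng, and in none of the Kdr and downstream Egfl7 windows. The other Egfl7 windows held it 3 and 2 times and that of Tie1 2 times, and those of Tek and Notch3 held none. This motif was present in 35.4% of all windows. GGGCGG, a core of SP1 sites, occurred 3 times in Flt1, 2 times in Kdr and 4 times in the downstream Egfl7 window, and is in 35.6% of all windows. The Notch3 window also held GGGCGG 4 times, and the remaining member windows held none. TATAAA is in 13.6% of all windows and, of the member windows, in that of Flt1, 31 bases before the start. A match describes these letters in this window and no more.

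Egfl7 also hosts the endothelial microRNA miR-126, whose gene lies inside region Egfl7 5, the region of smallest p of that gene in AAR. The mature RNA is encoded at chr2:26591402-26591423 on the plus strand. It is shown from RefSeq with its seed, bases 2 to 8, in capitals.
mmu-miR-126a-3p: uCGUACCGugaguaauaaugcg

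Against input, the mark was low over Egfl7 and Eng and at the start of Flt1, and close to input or above it along most of the Flt1 body and at Kdr. In AAR 13 of 43 tested member regions were called, 3 higher and 10 lower in H3K9me2, or 30.2% of those tested. Over all 40928 tested regions 23.6% were called, 11.3% higher and 12.3% lower. In RM 16 of 43 were called, 2 higher and 14 lower, or 37.2%, against 40.5% of all 40767 tested regions, 20.5% higher and 20% lower. The median member log2 fold change was -0.20 in AAR and -0.21 in RM, and 0.01 over all regions in both. The total share called was thus near the background in both biopsies, and the lower calls were a larger share of the member calls than of all calls. The AAR member count was 7 without mouse 17, without mouse 22 or without mouse 30. Over all regions 7116, 7894 and 7489 were then called, against 9670 with all mice, so the calls of the whole series fell as well.

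**Figure D1:**
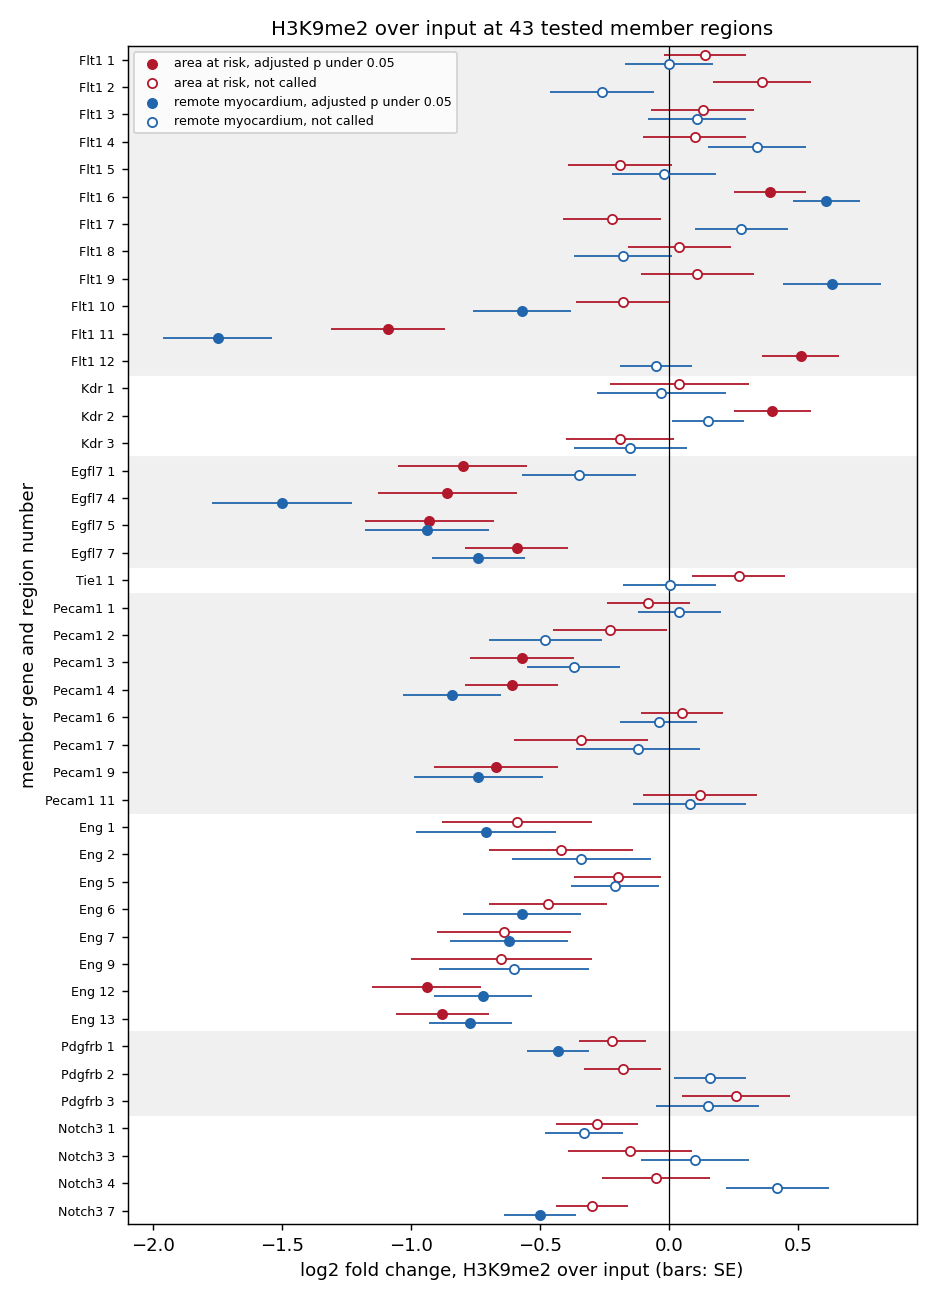
Log2 fold change of H3K9me2 over input (x axis, bars SE) at the 43 tested member regions (rows, by gene), in AAR (red) and RM (blue), 6 mice each; filled points were called at an adjusted p under 0.05. Every tested Egfl7 and Eng region lies below 0 in both biopsies, and Flt1 11 lies lowest, at -1.09 in AAR and -1.75 in RM.

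Flt1 encodes a VEGF receptor that binds its ligand tightly and signals weakly. Its 12 regions were all tested, and the one with the start site stood apart from the rest. Flt1 11, at chr5:147723800-147726599, covers the CG-rich window printed above. It held 6.96 CPM in the lowest, 10.61 in the median and 19.86 in the highest AAR H3K9me2 library, against 21.90, 27.64 and 32.85 in AAR input. In RM H3K9me2 it held 4.47, 10.70 and 14 CPM, against 27.90, 32.64 and 44.67 in RM input. All 6 H3K9me2 libraries lay under all 6 inputs in each biopsy. This gave a log2 fold change of -1.09 (SE 0.22, adjusted p = 0.00023) in AAR and -1.75 (SE 0.21, adjusted p = 2.85e-13) in RM, lower in 6 of 6 mice in both. Groups did not overlap in CPM at 4 of the 43 member regions in AAR and at 9 of 43 in RM, against 7.89% and 15.2% of all tested regions. The 3 to 24 reads per AAR H3K9me2 library and the 2 to 12 per RM H3K9me2 library at Flt1 11 limit its precision.

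Along the Flt1 body the mark was near or above input, except at Flt1 10 in RM. Flt1 6, at chr5:147660800-147665399 and 62.9 kb into the gene, held 34.81, 51.19 and 66.27 CPM (lowest, median, highest) in AAR H3K9me2, against 29.29, 38.59 and 40.84 in AAR input. RM H3K9me2 libraries held 46.15, 54.53 and 60.66 CPM, against 32.94, 35.02 and 37.71 in RM input. The groups overlapped in AAR, where 5 of 6 mice were higher, and did not overlap in RM. Its log2 fold change was 0.39 (SE 0.14, adjusted p = 0.0348) in AAR and 0.61 (SE 0.13, adjusted p = 4.42e-05) in RM. Flt1 9, 36.3 kb into the gene, was called higher in RM (0.63, SE 0.19, adjusted p = 0.00483) and stood at 0.11 (adjusted p = 0.741) in AAR. Flt1 10, 9.8 kb into the gene, was called lower in RM (-0.57, SE 0.19, adjusted p = 0.00985). Flt1 12, the region upstream of the start, was called higher in AAR (0.51, SE 0.15, adjusted p = 0.00898) and stood at -0.05 (adjusted p = 0.799) in RM. The remaining 7 Flt1 regions were called in neither biopsy, with log2 fold changes from -0.26 to 0.36.

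**Figure D2:**
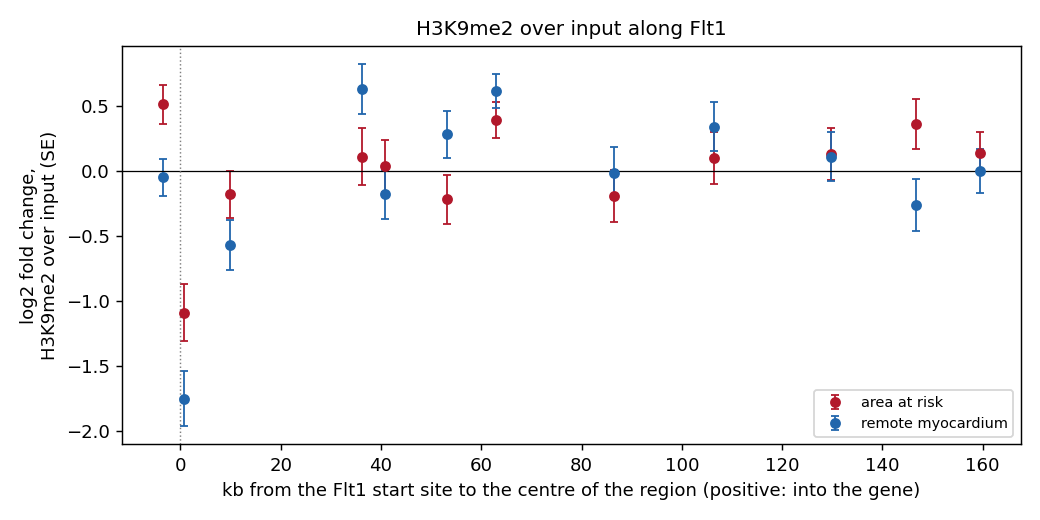
Log2 fold change of H3K9me2 over input (y axis, bars SE, 6 mice per group) of the 12 Flt1 regions by distance in kb from the start site to the centre of the region (x axis), in AAR (red) and RM (blue). The region centred 0.8 kb into the gene lies lowest in both biopsies and the region centred 62.9 kb into it is above 0 in both.

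Kdr encodes the main signalling VEGF receptor of endothelium. Of its 3 regions Kdr 2, at chr5:75961400-75965999 inside the gene, was called in AAR. It held 37.23, 48.48 and 69.40 CPM (lowest, median, highest) in AAR H3K9me2, against 30.89, 35.85 and 47.79 in AAR input. The groups overlapped, 5 of 6 mice were higher, and the log2 fold change was 0.40 (SE 0.15, adjusted p = 0.0374). This call was lost in DESeq2 (adjusted p = 0.0692) and without mouse 17 (0.103), 22 (0.195) or 27 (0.146). In RM Kdr 2 held 31.26, 42.37 and 58.13 CPM in H3K9me2 and 25.64, 38.24 and 49.16 in input, with a log2 fold change of 0.15 (SE 0.14, adjusted p = 0.419). Kdr 3, which covers the start site, did not pass in either biopsy, at -0.19 (SE 0.21) in AAR and -0.15 (SE 0.22) in RM.

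Egfl7 encodes a secreted protein of endothelial cells that guides vessel sprouting. Of its 7 regions 4 passed the filter on low counts, and all 4 lay below input in both biopsies. In AAR all 4 were called lower, and in RM Egfl7 4, 5 and 7 were. Egfl7 4, at chr2:26583800-26587599, overlaps 2 of the 3 start windows, the CG-rich one included. Its stretch at the other window is shared with Egfl7 3. The 1800 bases that no other region covers hold the CG-rich window only, and its counts may rest on that part. It held 3.37, 9.75 and 11.10 CPM (lowest, median, highest) in AAR H3K9me2, against 12.23, 15.42 and 19.29 in AAR input. In RM H3K9me2 it held 4.47, 6.01 and 9.07 CPM, against 14.49, 17.54 and 24.42 in RM input. Every H3K9me2 library lay below every input library of its biopsy. The fitted log2 fold change was -0.86 (SE 0.27, adjusted p = 0.0155) in AAR and -1.50 (SE 0.27, adjusted p = 1.05e-06) in RM, on 2 to 12 and 2 to 9 reads per H3K9me2 library.

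Egfl7 5, at chr2:26590400-26592199, lies inside the gene near its 3′ end, holds the miR-126 sequence printed above, and overlaps no other listed region. It held 6.75, 8.17 and 12.41 CPM in AAR H3K9me2, against 14.53, 17.93 and 19.71 in AAR input. RM H3K9me2 libraries held 4.47, 9.66 and 16.12 CPM, against 16.50, 18.78 and 26.57 in RM input. Groups again did not overlap in either biopsy. The log2 fold change was -0.93 (SE 0.25, adjusted p = 0.00447) in AAR and -0.94 (SE 0.24, adjusted p = 0.000487) in RM, lower in 6 of 6 mice in both. Egfl7 7, downstream of the gene and shared with Agpat2, was lower by similar values, -0.59 (adjusted p = 0.0225) in AAR and -0.74 (adjusted p = 0.000418) in RM. Egfl7 1, over the most upstream start, was called in AAR (-0.80, adjusted p = 0.0133) and did not pass in RM (-0.35, adjusted p = 0.180).

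**Figure D3:**
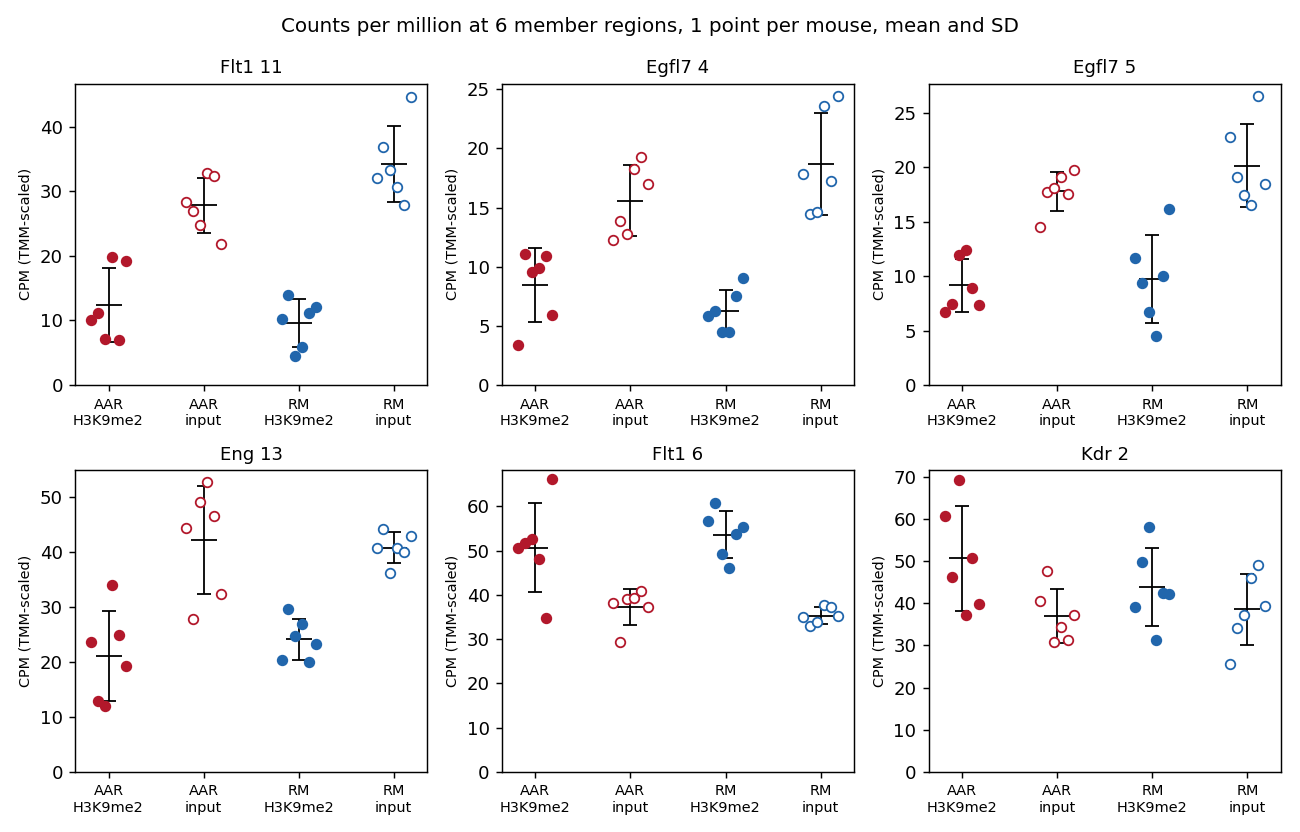
TMM-scaled CPM (y axis from 0) in each library at 6 member regions, 1 point per mouse with the mean and SD (n = 6), in AAR H3K9me2, AAR input, RM H3K9me2 and RM input from left to right; filled points are H3K9me2 and open points input. On average H3K9me2 lies below input at Flt1 11, Egfl7 4, Egfl7 5 and Eng 13, and above it at Flt1 6 and Kdr 2, where the AAR groups overlap.

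Eng encodes endoglin, the TGF-beta family co-receptor of endothelium. Of its 13 regions 8 were tested, and all 8 lay below input in both biopsies, from -0.94 to -0.20 in AAR and from -0.77 to -0.21 in RM. In AAR 2 were called lower and in RM 5. Eng 13, at chr2:32684400-32688799 beyond the 3′ end and shared with Fpgs, held 11.97, 21.38 and 33.92 CPM in AAR H3K9me2, against 27.75, 45.43 and 52.73 in AAR input. In RM H3K9me2 it held 19.96, 23.88 and 29.55 CPM, against 36.05, 40.63 and 44.13 in RM input. The groups overlapped in AAR and were apart in RM, and 6 of 6 mice were lower in both. This gave a log2 fold change of -0.88 (SE 0.18, adjusted p = 0.000367) in AAR and -0.77 (SE 0.16, adjusted p = 2.07e-05) in RM. Eng 12, over the 3′ end, was called in both biopsies (-0.94, adjusted p = 0.000707 in AAR, and -0.72, adjusted p = 0.000819 in RM). Regions over the start were less clear. Eng 1 and Eng 2 overlap each other across most of the promoter window. Regions wholly covered by others held 0 reads, so reads at the start may be missing from both counts. Eng 1 did not pass in AAR (-0.59, adjusted p = 0.117) and was called in RM (-0.71, adjusted p = 0.0266). Eng 2 passed in neither (-0.42 in AAR and -0.34 in RM). Inside the gene Eng 6 (-0.57, adjusted p = 0.0308) and Eng 7 (-0.62, adjusted p = 0.0234) were called in RM and stood at -0.47 and -0.64 without a call in AAR.

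Pecam1 encodes the junction protein CD31, a marker of endothelium that platelets and some leukocytes also carry. Of its 8 tested regions 3 were called lower in AAR and 2 in RM. Pecam1 4, at chr11:106674000-106679999 inside the gene, held 13.49, 20.04 and 25.89 CPM (lowest, median, highest) in AAR H3K9me2, against 24.67, 30.79 and 34.60 in AAR input. RM H3K9me2 libraries held 10.08, 17.88 and 21.78 CPM, against 22.39, 28.82 and 35.87 in RM input. The groups overlapped in AAR and did not in RM. Its log2 fold change was -0.61 (SE 0.18, adjusted p = 0.01) in AAR and -0.84 (SE 0.19, adjusted p = 0.000124) in RM. The AAR call was lost without mouse 17 (-0.52, adjusted p = 0.0523) or mouse 27 (-0.51, adjusted p = 0.0686). Pecam1 9 was called in both biopsies (-0.67, adjusted p = 0.0321 in AAR, and -0.74, adjusted p = 0.0107 in RM). Pecam1 3 was called in AAR (-0.57, adjusted p = 0.0319) and did not pass in RM (-0.37, adjusted p = 0.0917). The regions at the gene ends, Pecam1 1 and Pecam1 11, lay between -0.08 and 0.12.

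Tie1 encodes the orphan partner of the angiopoietin receptor. Tie1 1, its 1 tested region, at chr4:118478400-118480799 inside the gene, held 23.99, 26.09 and 36.99 CPM in AAR H3K9me2, against 19.85, 22.47 and 26.86 in AAR input. In RM H3K9me2 it held 20.12, 21.49 and 26.20 CPM, against 17.68, 22.68 and 27.67 in RM input. The groups overlapped in both biopsies. The fitted log2 fold change was 0.27 (SE 0.18, adjusted p = 0.256) in AAR and 0.0026 (SE 0.18, adjusted p = 0.992) in RM, where its sign turned in some alternatives.

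The mural receptors were close to input, with 1 region of each called lower, in RM. Pdgfrb, the PDGF-B receptor of pericytes, had 3 tested regions. Pdgfrb 1, at chr18:61039600-61045999 over a gene end, held 28.67, 51.85 and 57.43 CPM in AAR H3K9me2, against 47.68, 57.32 and 65.71 in AAR input. RM H3K9me2 libraries held 35.77, 45.18 and 63.77 CPM, against 57.75, 64.38 and 67.89 in RM input. The groups overlapped, yet 6 of 6 mice were lower in each biopsy. The log2 fold change was -0.22 (SE 0.13, adjusted p = 0.214) in AAR and -0.43 (SE 0.12, adjusted p = 0.00213) in RM. The other Pdgfrb regions, inside the gene, lay between -0.18 and 0.26 and passed in neither.

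Notch3, the Notch receptor of vascular smooth muscle, had 4 tested regions of 7. Notch3 7, at chr17:32161800-32166799, ends 41 bases short of the CG-rich promoter window on the minus strand. It held 25.89, 35.17 and 43.76 CPM in AAR H3K9me2, against 40.29, 45.66 and 47.86 in AAR input. In RM H3K9me2 it held 25.31, 33.44 and 42.48 CPM, against 40.52, 45.96 and 50.62 in RM input. Only the edges of the groups overlapped, and 6 of 6 mice were lower in each biopsy. This gave a log2 fold change of -0.30 (SE 0.14, adjusted p = 0.109) in AAR and -0.50 (SE 0.14, adjusted p = 0.00248) in RM. Notch3 4, inside the gene, stood at -0.05 in AAR and 0.42 (adjusted p = 0.0689) in RM.

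Member regions at gene ends lay lower than those inside genes, as regions of the whole series did. Of 16 tested member regions at gene ends, 1 was higher and 6 lower in AAR, with a median of -0.36, and 0 were higher and 8 lower in RM, with a median of -0.39. Over all tested gene-end regions the medians were -0.16 and -0.20, with 28.2% and 44.1% called. Of 27 member regions inside genes, 2 were higher and 4 lower in AAR (median -0.18), and 2 higher and 6 lower in RM (median -0.04). Over all such regions the medians were 0.05 and 0.06, with 18.2% and 35.1% called. The classes are not quite alike, as members were classed by the ends of their own gene. Regions of the whole series were classed by the ends of any annotated gene within 2 kb. Egfl7 4, over 2 start windows, counts as inside the gene.

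The 6 tested member regions that overlap a promoter window all lay below input in both biopsies, from -1.09 to -0.19 in AAR and from -1.75 to -0.15 in RM. Of these 3 were called lower in each biopsy. Eng 1 and Eng 2 overlap each other across most of their window, so their counts may leave out the start itself. Across the series, regions over windows with 16 or more CG dinucleotides had a median of -0.55 in AAR, with 49.6% called lower, and -0.61 in RM, with 62.5% called lower. Regions over windows with 0 to 5 had medians of 0.01 and -0.00, with 14.9% and 23.2% called lower. Flt1 11 and Egfl7 4, over CG-rich windows, thus lay below the median of their class, while Kdr 3, also over a CG-rich window, lay above it. Eng 1 and Eng 2, over a window with 6, lay below the median of -0.24 in AAR and -0.27 in RM of the class with 6 to 15. Egfl7 1, over a window with 5, went against the low-CG class. It stood at -0.80 in AAR, where it was called, and at -0.35 in RM, both below the class medians.

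Per length, the regions that overlap no other put Egfl7 and Eng lowest in the mark. Egfl7 held 5.08 ± 1.38 CPM per kb in AAR H3K9me2, against 9.88 ± 1.00 in AAR input, and Eng 5.37 ± 1.47 in AAR H3K9me2, against 9.36 ± 1.78 in AAR input (SD, n = 6). In RM H3K9me2 Egfl7 held 5.39 ± 2.24 and Eng 5.48 ± 0.92 CPM per kb, against 11.19 ± 2.12 and 9.01 ± 1.03 in RM input. Pecam1 followed with 7.31 ± 1.08 CPM per kb in AAR H3K9me2, then Notch3 with 7.62 ± 0.96, Pdgfrb with 8.48 ± 0.54, Flt1 with 9.57 ± 1.20, Kdr with 9.70 ± 1.06 and Tie1 with 11.71 ± 2.03. Each gene in this order overlapped the next in the range of its 6 libraries, so no neighbours differed beyond their spread. The median of 32718 such regions in the series was 9.05 CPM per kb in AAR H3K9me2 and 9.07 in RM H3K9me2, with lower quartiles of 7.15 and 7.01. Egfl7 rests on 1 such region, Egfl7 5, which also lies within 2 kb of Agpat2 and the 2 microRNA genes, and Tie1 on 1. Eng rests on 2, Eng 6 and Eng 13. The wider of these, Eng 13 with 4400 bases, lies outside Eng and within 2 kb of Fpgs. The order is therefore one of these regions and not of whole genes.

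Both biopsies showed much the same pattern against their own inputs. Over the 43 regions the log2 fold changes correlated at r = 0.81, and 32 had the same sign, with 9 regions called the same way in both, 4 called in AAR alone and 7 in RM alone. Over 40333 regions of the series r was 0.84. These are descriptions across regions that share libraries, without a test.

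Counts were also summed over all regions of a gene, with p adjusted over all genes with a region. The sums again gave Egfl7 and Eng as lower in both biopsies, but departed from region calls for other members. Pecam1 had regions called lower in both biopsies, and Pdgfrb and Notch3 1 each in RM, while their sums were not called. The Flt1 start-site region was called lower in both biopsies, although 2 other Flt1 regions were higher in AAR. Tie1 had no called region. Egfl7 summed to -0.68 (SE 0.14, adjusted p = 0.000157) in AAR and -0.64 (SE 0.10, adjusted p = 1.08e-07) in RM, and Eng to -0.46 (SE 0.09, adjusted p = 7.91e-05) and -0.42 (SE 0.07, adjusted p = 4.24e-07). Tie1 was called higher in AAR (0.53, SE 0.15, adjusted p = 0.00512) and not in RM (0.05, adjusted p = 0.815). Its sum includes the few reads of Tie1 2, which was not tested against input as a region. Flt1 (0.20, adjusted p = 0.0194) and Kdr (0.29, adjusted p = 0.0252) were also called higher in AAR. In total 5 of 8 members were called in AAR, 3 higher and 2 lower, and 2 of 8 lower in RM, against 42.3% (21.3% higher, 21% lower) and 55.1% (27.8% higher, 27.3% lower) of all genes. Scaling the sums by the region totals moved the median gene by about 0.1, to -0.09 in AAR and -0.10 in RM, and changed the weaker calls. Flt1 (0.09, adjusted p = 0.268) and Kdr (0.19, adjusted p = 0.153) were then lost, Tie1 stayed at 0.42 (adjusted p = 0.0216), and Notch3 became lower in AAR (-0.23, adjusted p = 0.0326). Pecam1 became lower in AAR (-0.26, adjusted p = 0.00929) and RM (-0.27, adjusted p = 0.000729). With the mouse as replicate block Pecam1 was also called, at -0.17 in AAR (adjusted p = 0.0428) and -0.17 in RM (adjusted p = 0.0311), against -0.16 in each without it (adjusted p = 0.105 and 0.0501).

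Between the biopsies no member region was called. Across its groups 0 member regions were free of overlap, against 0.159% of all tested regions. The comparison of AAR H3K9me2 with RM H3K9me2 asks whether the muscle that went through the ischemic cycles carried the mark differently at vessel genes. It called 0 of 32 tested member regions and 0% of 31526 regions in edgeR, and DESeq2 also called 0. Of the members, 21 lay above 0 and 11 below, from -0.33 to 0.59 with a median of 0.06. At an unadjusted p under 0.05 there were 2 member regions, Flt1 2 and Flt1 12, against 4.03% of all tested regions. The median SE over all regions was 0.21, and a difference of 0.59 with an SE of 0.22 did not pass after adjustment, so the lack of calls does not show that the biopsies were alike.

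Flt1 2, at chr5:147578000-147580399 inside the gene, held 14.36, 28.11 and 31.82 CPM (lowest, median, highest) in AAR H3K9me2, against 11.62, 17.91 and 21.16 in RM H3K9me2. The groups overlapped, although each of the 6 mice was higher in AAR. Its log2 fold change was 0.59 (SE 0.22, adjusted p = 0.999). Flt1 12, upstream of the start, held 37.79, 56.82 and 74.19 CPM in AAR H3K9me2, against 33.25, 38.69 and 49.37 in RM H3K9me2, with a log2 fold change of 0.41 (SE 0.17, adjusted p = 0.999) and 4 of 6 mice higher. Among the Flt1 regions, Flt1 7 and Flt1 9 pointed the other way, at -0.33 and -0.32, so the fitted values of the gene lay on both sides of 0.

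The region of smallest p was likewise not called for any other member. Kdr 2 stood at 0.18 (SE 0.17), Egfl7 1 at -0.29 (SE 0.29), Tie1 1 at 0.28 (SE 0.20) and Pecam1 2 at 0.39 (SE 0.26). Eng 12 stood at -0.25 (SE 0.27), Pdgfrb 2 at -0.27 (SE 0.18) and Notch3 4 at -0.30 (SE 0.22), each with an adjusted p of 0.999. Several regions that were lowest against input did not pass the filter on low counts in this comparison. Fitted without it, Flt1 11 stood at 0.38 (SE 0.31), Egfl7 4 at 0.40 (SE 0.38) and Egfl7 5 at -0.13 (SE 0.33), each with an adjusted p of 0.998. Summed over genes 0 of 8 members were called (0% of 15759 genes), and 1 member, Tie1 at 0.39 (SE 0.18, adjusted p = 1.0, higher in 6 of 6 mice), had an unadjusted p under 0.05, against 3.7% of all genes.

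**Figure D4:**
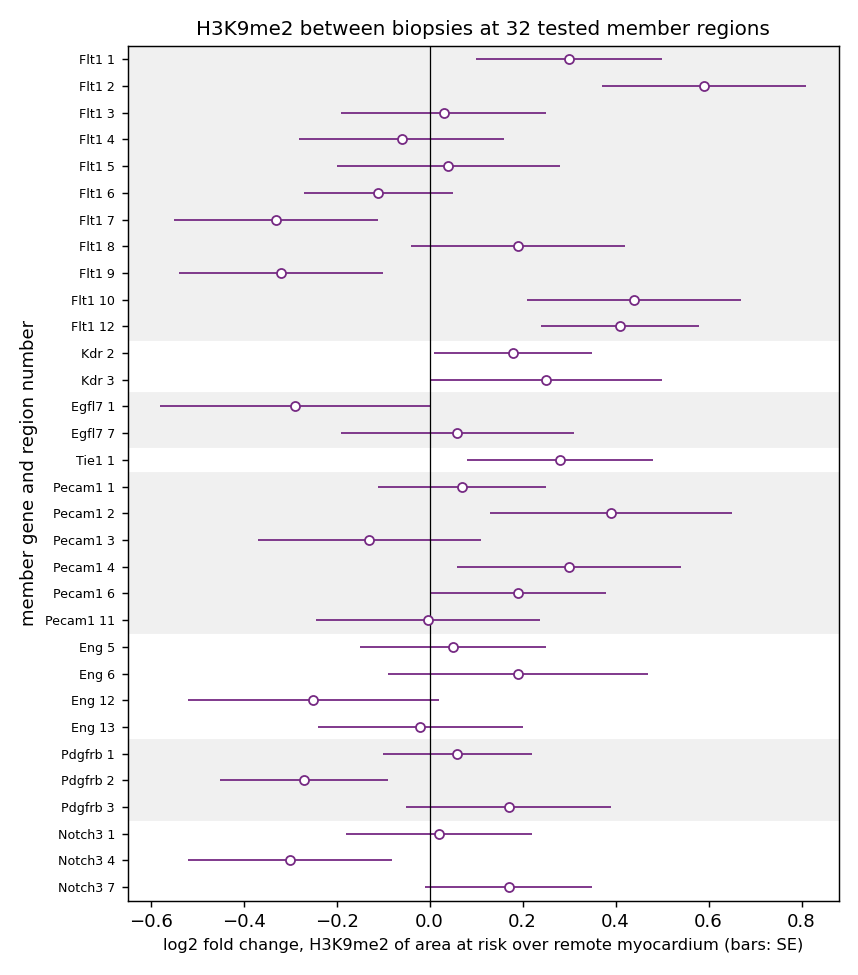
Log2 fold change of AAR H3K9me2 over RM H3K9me2 (x axis, bars SE, 6 mice per group) at the 32 tested member regions (rows, by gene). None was called, and the values spread on both sides of 0 from -0.33 to 0.59.

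Between the input libraries of the biopsies 0 of 44 tested member regions were called, and 0% of 42603. At an unadjusted p under 0.05 there was 1 member, Flt1 11 at -0.28 (SE 0.13, adjusted p = 1.0), against 2.72% of all tested regions. The difference of H3K9me2 over input between the biopsies, tested as an interaction over all 24 libraries, called 0 of 46 member regions and 0% of 42445. Of the members 4 had an unadjusted p under 0.05, against 4.07% of all regions. Tie1 2 stood at 1.31 (SE 0.51), Flt1 11 at 0.67 (SE 0.33), Flt1 2 at 0.63 (SE 0.27) and Flt1 12 at 0.55 (SE 0.21), each with an adjusted p of 1.0. Tie1 2 held only 2 to 13 reads per AAR H3K9me2 library and 1 to 7 per RM H3K9me2 library. It did not pass the filter on low counts in any contrast of 2 groups. The 4 regions called in AAR alone and the 7 called in RM alone were therefore not shown to differ between the biopsies.

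Genes that act with the members were described from lists of summed counts. Of 15 tested angiogenic ligands and co-receptors, 8 were lower and 0 higher than input in AAR (median -0.28), and 9 were lower and 1 higher in RM (median -0.33), against a median of 0.01 over all genes in both. Of all genes 21% were lower in AAR and 27.3% in RM. Vegfa, the ligand of Kdr and Flt1, stood at -0.75 (adjusted p = 2.11e-07) in AAR and -0.79 (adjusted p = 2.52e-13) in RM. Vegfb, a ligand of Flt1, stood at -0.87 (adjusted p = 8.5e-06) in AAR, and Dll4, the Notch ligand of sprouting endothelium, at -0.68 (adjusted p = 1.5e-05). Pdgfb, the ligand of Pdgfrb, stood at -0.45 (adjusted p = 6.3e-07) in RM.

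Of 20 other endothelial genes, 1 was higher and 5 lower in AAR (median 0.03), and 2 were higher and 6 lower in RM (median 0.01). These totals, 6 and 8 of 20, were below the 42.3% of all genes called in AAR and the 55.1% called in RM. Tal1, a transcription factor of blood and endothelial precursors, stood at -0.83 (adjusted p = 1.75e-05) and Klf4, a flow-responsive factor, at -0.78 (adjusted p = 6.41e-05) in AAR. Nos3, the endothelial nitric oxide synthase, stood at -0.41 (adjusted p = 4.23e-06) in RM. Erg, the ETS factor that maintains endothelial identity, went the other way, at 0.43 (adjusted p = 3.9e-05) in AAR and 0.62 (adjusted p = 1.03e-14) in RM. Of 12 other mural genes, 2 were higher and 3 lower in AAR (median -0.04), and 1 was higher and 6 lower in RM (median -0.16). Here the totals, 5 and 7 of 12, were near the same shares of all genes. Myh11, the smooth muscle myosin, was higher at 0.52 (adjusted p = 1.36e-05) in AAR and 0.58 (adjusted p = 5.99e-11) in RM. Mcam, an adhesion molecule of pericytes and endothelium, was lower at -0.90 (adjusted p = 0.000121) in AAR. Tbx2, a repressor of the T-box family, was lower at -0.73 (adjusted p = 1.06e-11) in RM. With the sums scaled by the region totals the ligands and co-receptors had 0 higher and 10 lower in AAR and 0 and 11 in RM. Scaled so, the other endothelial genes had 1 higher and 6 lower in AAR and 1 and 7 in RM, and the other mural genes 1 and 3 in AAR and 1 and 6 in RM. Between the biopsies 0 genes of these 3 lists were called in edgeR, and 0 had an unadjusted p under 0.05.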

How the data were processed

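Tissue pieces of about 25 mg were crosslinked, the chromatin was cut with an enzyme, and 5 µg of it entered a precipitation, per the labels' protocols. Per the file headers, the authors deposited 4 tables over the same mm10 regions with whole-number counts for 12 libraries each, a log2 fold change, a log2 mean CPM, a p-value and an FDR. The submitters' processing notes name Bowtie2 2.2.2, edgeR and the domain caller SICER 1.1, with no role given. Which reads were counted, and how, is not given in the sources used here.

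Here each contrast of 2 groups was fitted to its 12 libraries, over all regions, with edgeR 4.0.16 (R 4.3.3), using TMM scaling, the filterByExpr filter and the two-sided quasi-likelihood test, called at an FDR of 0.05. The interaction used all 24 libraries. Gene sums added the counts of all regions within 2 kb of a gene, with their own TMM factors. DESeq2 1.42.0 and the other alternatives are in the closing section. The fits were tested on counts simulated at a set dispersion. For AAR H3K9me2 against RM H3K9me2, 36.8% of true log2 changes of 1 were called, and 2.22% of those of 0.5. For H3K9me2 against input in AAR the shares were 48% and 3.12%. In that fit 98 of 40903 regions carried a log2 difference of 1 and 96 one of 0.5. In the deposited counts 23.6% of tested regions were called in that contrast. The share of differences of these sizes that was called there was not tested. Sequences and gene coordinates came from RefSeq (GRCm38.p6).

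Members and gene lists were chosen with earlier results of these data known. The rule for named regions took each member's region of smallest p in each contrast; the other called regions, and those over start sites, were named after their values were seen. Listed genes are at most 3 of smallest p per list and contrast. A mouse number in the titles marks 1 animal throughout, which pairs the libraries. Libraries of 1 mouse deviated from their group means with a Pearson's r between -0.14 and 0.13 across regions. Precision is set by the counts per region, which were low in H3K9me2 libraries.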

Additional observations from a re-analysis of the deposited data

How the results depend on the processing

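The member counts between biopsies, between inputs and of the interaction stayed at 0 under all alternatives run, and over all regions AAR against RM gave 0 to 1 as each mouse was left out (1 without mouse 19). The AAR count against input, 13, became 8 in DESeq2, 5 at an FDR of 0.01, 8 among the 29 regions that overlap no other and 7 to 13 with 1 mouse left out. It was 13 or 14 with median-of-ratios factors, without TMM or without the filter. The RM count, 16, became 10 among the 29, and otherwise ran from 12 to 17. Over all regions the AAR count at an FDR of 0.01 was 5056. With the mouse as replicate block the counts were 14 and 17 for members and 10994 and 16907 for all regions, and apart from Pecam1's sums the block changed no call among the 40 named region values or the member sums. Of 40 named region values 11 were called, and Kdr 2 and Pecam1 4 in AAR were the ones to lose a call (values in the report). Values near 0 turned sign without being called. Tie1 1 against RM input stood at -0.02 with the replicate block, -0.0028 without TMM, -9.8e-05 in DESeq2 and -0.04 to 0.06 (-0.01, -0.02, -0.03 among them) with 1 mouse left out. Tie1 1 between inputs ran from -0.08 to 0.09 (-0.07, -0.01 among them), Eng 13 between inputs from -0.01 to 0.18, and the Eng 12 interaction from -0.42 to 0.04. The cause was not tested, except that a stricter FDR or a count among fewer regions cannot raise a count by construction. The alternatives on gene sums (scaling by region totals, and the interaction with a block) were added after seeing the data.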

Other observations

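Markers of other heart cells were both above and below input. Of 7 tested cardiomyocyte genes, 0 were higher and 1 lower in AAR, and 2 higher and 3 lower in RM, by edgeR's test on gene sums. Of all genes 42.3% were called in AAR and 55.1% in RM, and the small lists here are to be read against those shares. Tnni3, the cardiac inhibitory troponin, was lower in both, at -0.45 (adjusted p = 0.00623) in AAR and -0.59 (adjusted p = 0.000166) in RM. Actn2, the Z-disc actinin, was higher in RM (0.56, adjusted p = 0.00129). Of 4 tested fibroblast genes, 1 was higher and 1 lower in each biopsy, with Ddr2, a collagen receptor, at 0.75 (adjusted p = 0.00188) in AAR and 0.89 (adjusted p = 6.38e-09) in RM. All 3 tested leukocyte genes were called in both biopsies. Itgam, the integrin of myeloid cells, was higher at 0.82 (adjusted p = 0.0005) in AAR and 0.99 (adjusted p = 7.33e-09) in RM, and Cd68, a macrophage marker, was lower at -0.50 (adjusted p = 0.00296) and -0.66 (adjusted p = 8.03e-06). With the sums scaled by the region totals, RM had 1 higher and 3 lower cardiomyocyte genes and 1 and 2 fibroblast genes, and AAR 1 and 1 leukocyte genes. Between the biopsies 0 genes of these 3 lists were called, with 1 (Col1a1) at an unadjusted p under 0.05.

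In the authors' deposited tables, 0 of the 59 member regions had an FDR under 0.05 between H3K9me2 of the biopsies or between inputs. Against input, the authors' deposited tables held 12 in AAR, 2 higher and 10 lower in H3K9me2, and 15 in RM, 2 higher and 13 lower. The gene whose summed log2 CPM over the 24 libraries was most like the members' mean was Zadh2, at r = 0.804, as a description over libraries that differ mainly as H3K9me2 and input.

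H3K9me2 libraries held a median of 636289.5 counts in AAR and 687467 in RM, and many member regions held under 20 counts per library. Regions with no read or below the count filter gave no test, those that overlap others rest on part of their reads, and Tek had no listed region.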
